A study of Mus musculus with 12 samples.

Results

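The response of wild-type cerebellar granule neurons (CGNs) to recombinant interferon-β (rIFN-β) was read from 6 of the 12 arrays of the series, 3 of untreated Ifnb+/+ cultures and 3 of Ifnb+/+ cultures kept with 100 U/ml rIFN-β for 24 hr. The other 6 arrays held Ifnb-/- cultures with the same treatment, and they entered the estimate of the spread and a side-by-side comparison of the response. CGNs are small glutamatergic neurons of the cerebellum. All mice were of the B10.RIII strain and 7 days old per the labels, and RNA was taken after 3 days in neurobasal medium with B27. The Ifnb-/- mice lack the gene for IFN-β, and the methods give their wild-type controls as Ifnb+/+ or Ifnb+/- littermates. Cultures were made in triplicate, and whether the 3 came from separate litters is not stated, so p-values measure the spread among cultures, which may be technical.

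The comparison asks which transcripts a neuronal culture changes when it meets a type I interferon. Interferon-β binds the receptor pair Ifnar1 and Ifnar2, the kinases Jak1 and Tyk2 phosphorylate STAT proteins, and STAT dimers bound to Irf9 switch on interferon-stimulated genes through a DNA motif with repeated GAAA blocks. These genes encode sensors of foreign nucleic acid, proteins that block viral entry, translation or replication, GTPases that attack intracellular parasites, peptide-presenting machinery, chemokines, and inhibitors that end the signal. In the cerebellum type I interferon acts on neurons as well as on microglia, the resident macrophages of the brain.

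Each of 18193 genes was read, on the log2 scale, from the brightest Affymetrix probe set that names that gene alone, and genes were called at an adjusted p under 0.05 from limma. After rIFN-β 324 genes were higher, 1.78% of all genes tested, and 247 were lower, 1.36%. Of the higher genes 218 changed at least 2-fold, 106 at least 4-fold, 34 at least 16-fold and 7 at least 64-fold, with a median log2 fold change of 1.39. Of the lower genes 48 changed at least 2-fold and 2 at least 4-fold, with a median of −0.77, and the median over all genes was −0.03. The arrays of the groups did not overlap for 322 of the higher and for all 247 lower genes called, while 16.0% of all genes showed no overlap. Of the higher genes 49.1% had an untreated mean under 5 on the log2 scale, as did 46.5% of all genes and 16.6% of the lower genes.

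The replicate arrays of a group were not alike, and the counts depend on them. The untreated Ifnb+/+ arrays correlated at 0.971 to 0.993 across genes and the treated ones at 0.983 to 0.989, against 0.997 to 0.998 for untreated Ifnb-/- and 0.985 to 0.997 for treated Ifnb-/-. The median SD of a gene was 0.201 in untreated and 0.171 in treated Ifnb+/+, but 0.0872 in untreated Ifnb-/-, and all 12 arrays shared 1 estimate of the spread. From the 6 Ifnb+/+ arrays alone 99 genes were higher and 32 lower, of which 99 and 31 were among the genes called with all arrays. Leaving out 1 Ifnb+/+ array moved the counts to 1307 higher and 1598 lower genes (without untreated replicate 2), 165 and 76 (without untreated replicate 3), 664 and 416 (without treated replicate 1), 196 and 113 (without treated replicate 2) or 185 and 99 (without treated replicate 3), and 157 higher and 66 lower genes kept their call without each of the 6. Without untreated Ifnb-/- replicate 1, 2 or 3 the lower genes numbered 148, 136 and 142. The methods' t-test gave 0 genes in each direction after Benjamini-Hochberg adjustment, and 617 higher and 852 lower genes at an unadjusted p under 0.05, of which 339 and 281 also changed at least 1.5-fold.

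**Figure D1:**
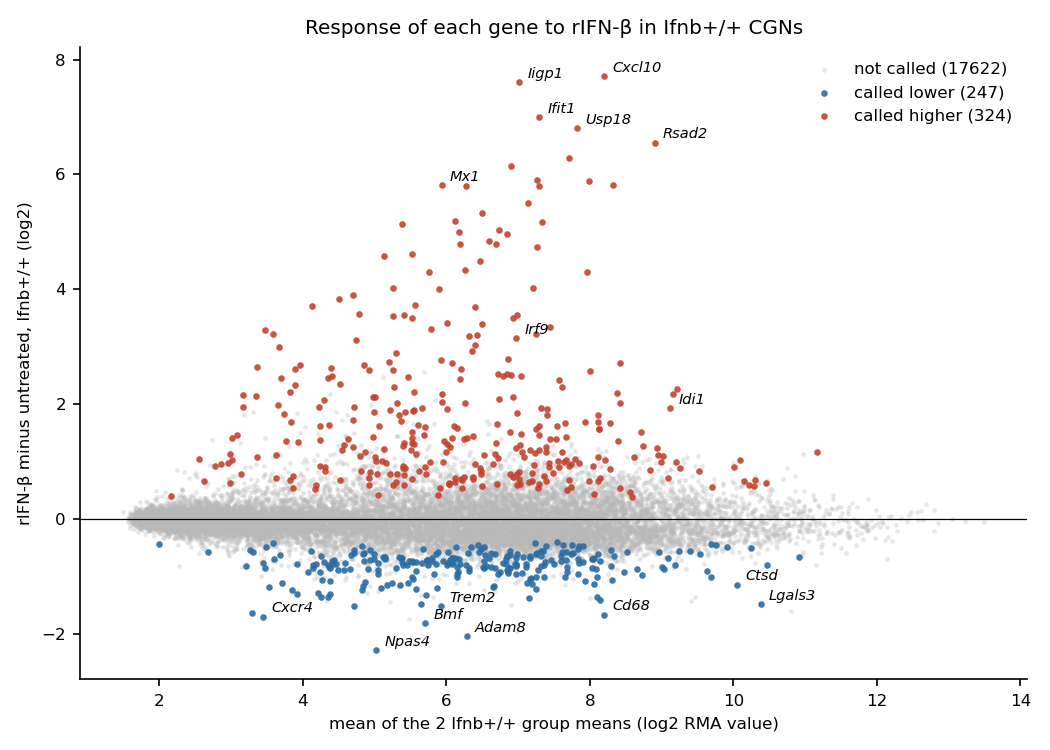
Log2 difference between rIFN-β-treated and untreated Ifnb+/+ CGNs (y axis) against the mean level of the gene over both groups (x axis, log2), 1 point per gene and coloured by the call. The 324 genes called higher reach a log2 difference of 7.72 (Cxcl10), whereas the 247 called lower end at −2.28 (Npas4).

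The largest increases belonged to antiviral genes that were dim without treatment. Cxcl10, the chemokine that draws activated T cells, read 4.11, 4.59 and 4.33 in the untreated and 11.48, 12.01 and 12.70 in the treated arrays, and its log2 fold change was 7.72 (standard error 0.29, adjusted p = 9.52e-08), a 211-fold difference. Iigp1, an immunity-related GTPase, read 3.22, 3.38 and 3.05 against 9.74, 10.94 and 11.79, a 195-fold difference (log2 7.61, adjusted p = 3.14e-06). Ifit1, which binds viral RNA lacking a methylated cap, read 4.06, 3.68 and 3.66 against 9.85, 11.09 and 11.44, a 128-fold difference (log2 7.00, adjusted p = 8.17e-07). In all of these genes the lowest treated array lay far above the highest untreated array, and treated replicate 1 was the lowest of the 3. The next in size were Usp18 (log2 fold change 6.81), which removes the ubiquitin-like modifier ISG15 from proteins, Rsad2 (6.56), which encodes viperin, Igtp (6.29), Ifit2 (6.15), Cmpk2 (5.91), Ifit3 (5.89), Irgm1 (5.83), Mx1 (5.81), Gbp6 (5.81), Gbp7 (5.79) and Gbp2 (5.50). The 20 largest increases ended with Irgm2 (5.33), Samd9l (5.20), Dtx3l (5.18), Gm4951 (5.15), Ifi47 (5.03) and Oasl1.

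The letters that STAT and Irf9 complexes recognize can be looked for upstream of these genes. RefSeq promoters (GRCm38.p6; 250 bases before to 50 bases after a start) were matched by symbol to 14452 of the genes tested and were searched on both strands for GAAANNGAAA, a short form of the interferon-stimulated response element. The motif stood in a promoter of 51 of 265 higher genes (19.2%), of 47 of 177 genes higher by at least 2-fold (26.6%), of 15 of 25 genes higher by at least 16-fold (60.0%), of 9 of 199 lower genes (4.52%) and of 524 of all 14452 genes (3.63%). It stood in 3.44% of the 32851 promoters in the table. TTCNNNGAA, the gamma-activated site that STAT dimers without Irf9 bind, stood in a promoter of 11.3% of the higher, 7.54% of the lower and 8.57% of all genes, and in 8.30% of all promoters. Among genes higher by at least 16-fold it stood in 4 of 25 (16.0%). The 2 motifs shared bases in 24 promoters of the table. Of the 20 largest increases 15 had a promoter in the table, and 9 of these held the response element. The element was absent from these windows for Ifit2, Cmpk2, Samd9l, Dtx3l, Ifi47 and Oasl1, which says nothing of sequence outside them. The stretches below come from 6 of the genes with the largest increases and show the element with the bases around it. Each is written 5′ to 3′ in the direction of the gene, upstream of the start only, with GAAANNGAAA or its reverse complement in capitals.
Cxcl10 (chr5:92349063-92349139, minus strand): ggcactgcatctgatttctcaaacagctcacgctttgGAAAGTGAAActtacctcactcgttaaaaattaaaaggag
Ifit1 (chr19:34640764-34640843, plus strand): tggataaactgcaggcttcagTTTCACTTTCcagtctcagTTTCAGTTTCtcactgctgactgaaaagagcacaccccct
Rsad2 (chr12:26456533-26456612, minus strand): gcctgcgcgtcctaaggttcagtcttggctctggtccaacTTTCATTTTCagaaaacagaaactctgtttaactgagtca
Igtp (chr11:58199482-58199555, plus strand): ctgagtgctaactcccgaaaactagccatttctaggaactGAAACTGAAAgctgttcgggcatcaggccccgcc
Irgm2 (chr11:58214873-58214952, plus strand): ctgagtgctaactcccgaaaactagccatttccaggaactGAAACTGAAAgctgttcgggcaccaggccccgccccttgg
Gbp2 (chr3:142620564-142620643, plus strand): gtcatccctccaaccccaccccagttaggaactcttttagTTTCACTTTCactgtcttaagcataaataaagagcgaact
The Ifit1 stretch held 2 elements and each of the others 1. The neighbouring genes Igtp and Irgm2 were equal at 72 of the first 74 bases of their stretches, and both genes rose (log2 fold changes 6.29 and 5.33). The element nearest to the start began 34 bases before it in Igtp, 64 in Irgm2, 59 in Gbp2, 85 in Ifit1, 120 in Rsad2 and 213 in Cxcl10.

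Among 7 measured genes of the receptor and JAK-STAT list, 3 were higher and none was lower. Irf9, the DNA-binding partner of STAT dimers, read 5.77, 4.94 and 5.47 in untreated and 8.68, 8.33 and 8.65 in treated arrays (log2 fold change 3.16, standard error 0.19, adjusted p = 1.77e-06). Stat2 rose by 2.52 (adjusted p = 0.00108) and Stat3 by 1.52 (adjusted p = 0.0138), the last of which lost its call without some of the Ifnb+/+ arrays. The receptor genes Ifnar1 (log2 fold change −0.10, adjusted p = 0.642) and Ifnar2 (0.31, adjusted p = 0.126) and the kinase genes Jak1 (0.15, adjusted p = 0.68) and Tyk2 (−0.01, adjusted p = 0.971) did not pass the test. Ifnb1 itself read between 2.56 and 2.79 in all 6 Ifnb+/+ arrays, among the dimmest genes. In the Ifnb-/- arrays, whose mice lack the gene, it read 2.48 to 3.06, so these readings show no Ifnb1 signal above background.

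Of 7 interferon regulatory factors 4 rose, and all 4 were also called from the 6 Ifnb+/+ arrays alone. Irf7, which amplifies type I interferon production, read 4.81, 4.99 and 4.60 against 7.04, 8.54 and 9.03 (log2 fold change 3.41, adjusted p = 0.00082). Irf1 rose by 3.23, Irf2 by 2.74 and Irf8 by 2.61. In these, as in 322 of the 324 higher genes and 16.0% of all genes, untreated and treated arrays did not overlap. The feedback list gave 5 higher genes of 13: Usp18 (6.81), Socs1 (2.69), Ube2l6 (2.49), an enzyme that conjugates ISG15, Ptpn2 (1.24) and Socs3 (0.71). Socs1 and Socs3 are inhibitors of JAK kinases and Ptpn2 is a phosphatase of JAK and STAT proteins. The calls of Ptpn2 (adjusted p = 0.0482) and Socs3 (adjusted p = 0.0232) were lost without some of the Ifnb+/+ arrays.

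**Figure D2:**
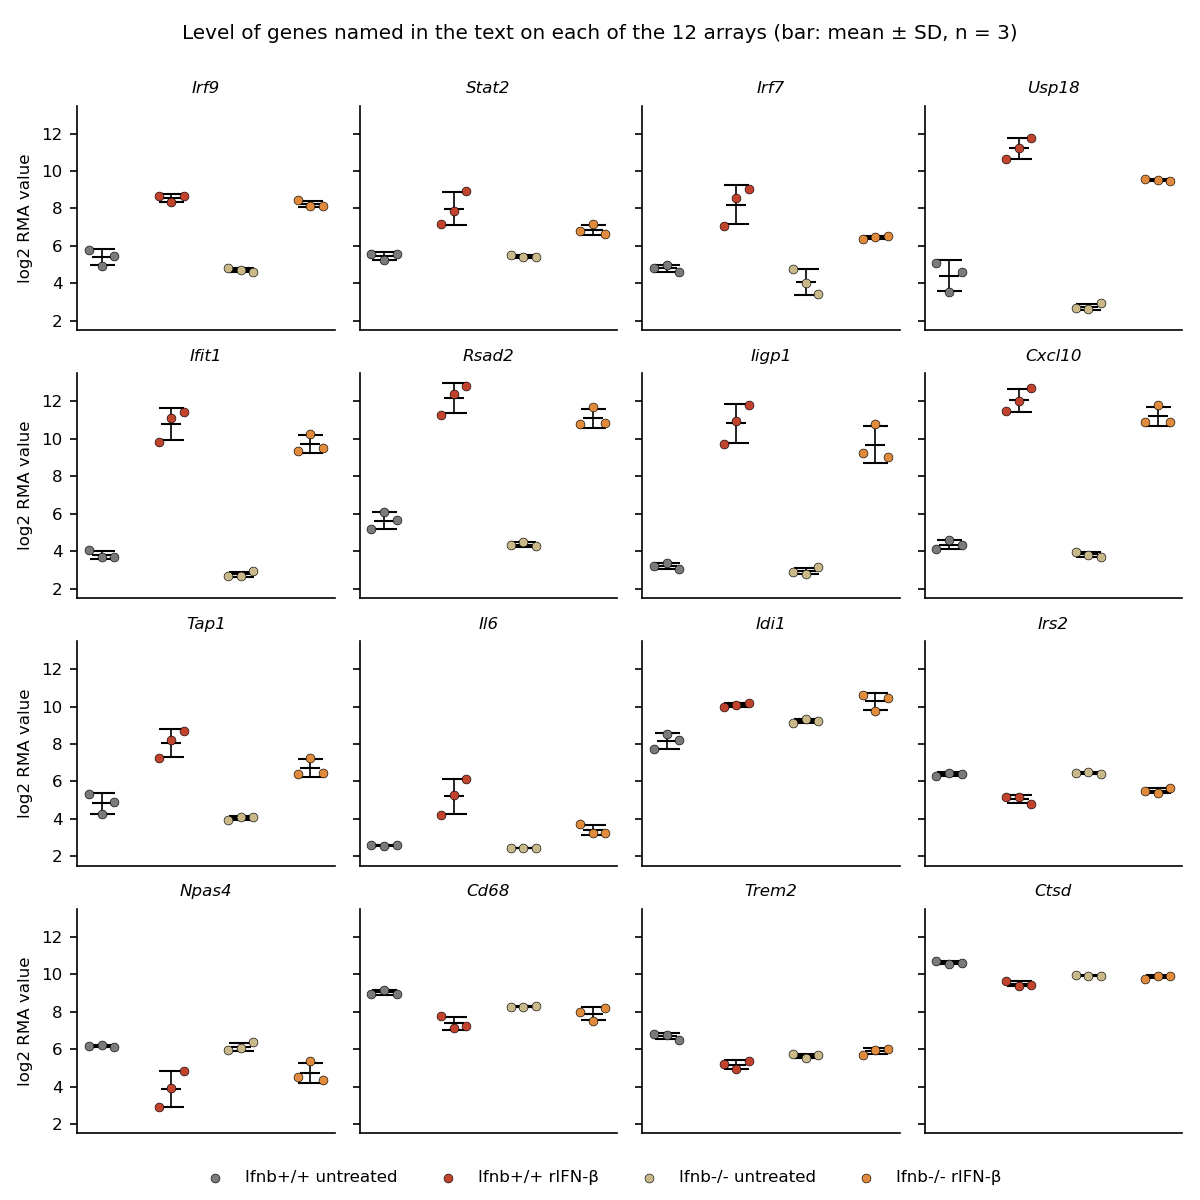
Log2 value of 16 genes on every array (points), with the mean and SD of each group of 3 cultures (bars), for the untreated and rIFN-β-treated groups of both genotypes. Irf9 to Idi1 lie higher and Irs2 to Ctsd lower in all 3 treated Ifnb+/+ arrays than in all 3 untreated ones, and Trem2 and Ctsd lie at similar levels in both Ifnb-/- groups.

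Of 18 sensors of nucleic acid 9 rose and none fell. The RNA sensor genes Ifih1 (log2 fold change 4.34, adjusted p = 0.000229) and Ddx58 (4.02, adjusted p = 7.06e-05), the double-stranded RNA receptor gene Tlr3 (3.90), Trim25 (3.04), which activates the Ddx58 product, Eif2ak2 (2.93), the kinase PKR, and Dhx58 (1.62) were called. Tlr3 read 2.83, 2.68 and 2.75 in untreated arrays and 5.34, 6.57 and 8.04 in treated arrays, a wide spread among the treated cultures. Its untreated readings lay near those of Ifnb1, which showed no signal above background. Of 11 Ifit and Ifitm genes 6 rose, from Ifit1 (7.00) to Ifitm1 (1.36), whose call was lost without 1 or more of the Ifnb+/+ arrays, and the membrane protein gene Ifitm3, which blocks viral entry, moved from 8.07 ± 0.30 (SD, n = 3) to 10.25 ± 0.77. Of 10 oligoadenylate synthetase genes and RNase L, 5 rose: Oasl1, Oasl2 (4.85), Oas1b (2.78), Oas1a (2.49) and Oas1c (2.35).

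The guanylate-binding proteins and immunity-related GTPases moved together, with 10 of 11 measured genes higher, a median log2 fold change of 5.50 and 9 of them called from the 6 Ifnb+/+ arrays alone. The mean level of the list was 3.62 to 3.78 in untreated and 7.64, 8.92 and 9.59 in treated arrays. Of 33 other antiviral effectors 25 rose, with a median over the list of 2.46, and 14 were called from the 6 Ifnb+/+ arrays alone. Mx1, a GTPase against influenza viruses, read 2.84, 2.82 and 3.44 against 7.42, 9.13 and 9.97. Trim21 (4.97), an antibody receptor of the cytosol, Rtp4 (4.74) and Nmi (4.49) followed. Among the interferon-induced ADP-ribosylation genes 4 of 5 rose, namely Dtx3l (5.18), Parp14 (4.80), Parp9 (4.79) and Parp12 (3.35).

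Peptide presentation on MHC class I rose in part. Of 13 measured members 5 were called higher: Nlrc5 (log2 fold change 4.58), the transactivator of MHC class I genes, Tap1 (3.21) and Tap2 (2.22), which pump peptides into the endoplasmic reticulum, and the loading factors Tapbp (1.57) and Tapbpl (1.38). Nlrc5 read 2.77, 2.92 and 2.83 without and 5.48, 7.86 and 8.93 with rIFN-β. The immunoproteasome genes Psmb9 (3.19), Psmb8 (2.14) and Psmb10 (1.63) rose, 3 of 4 measured, whereas none of 28 constitutive proteasome genes was called in either direction (median −0.14). Of the MHC class I calls 3 held without each of the 6 Ifnb+/+ arrays, and those of Tapbp, Tapbpl and the immunoproteasome gene Psmb10 did not.

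Chemokine genes rose in 8 of 23 cases and fell in 1. After Cxcl10 came Cxcl11 (log2 fold change 3.73), a ligand of the same receptor, and the monocyte attractants Ccl12 (2.60), Ccl2 (2.42) and Ccl7 (1.87), with the eosinophil attractant Ccl11 at 1.42. Ccl2 read 6.15, 6.63 and 6.28 against 8.22, 8.56 and 9.56. The gene that fell was Ccl9 (−1.40, adjusted p = 0.0436), whose treated arrays read 8.24, 7.17 and 6.93 against 8.38, 9.24 and 8.90. Of 22 cytokine and NF-κB genes 3 rose: Il6 (2.61), Il15 (1.47) and Icam1 (0.61). Il6 read 2.61, 2.57 and 2.58 against 4.21, 5.27 and 6.11. The untreated readings lay within those of Ifnb1, which showed no signal above background. Among 13 immune co-signal genes 5 rose, including Cd274 (3.70), which encodes the T cell inhibitor PD-L1, Cd69 (2.90), Tnfsf10 (1.37), which encodes TRAIL, Cd47 (0.91) and Cd40 (0.84). In the cell death list Mlkl (2.22), the effector of necroptosis, and Casp4 (2.14), an inflammatory caspase, were the only called genes of 35, and both lost the call without 1 or more of the Ifnb+/+ arrays, as did Ccl9, Ccl11, Icam1, Cd47 and Tnfsf10.

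**Figure D3:**
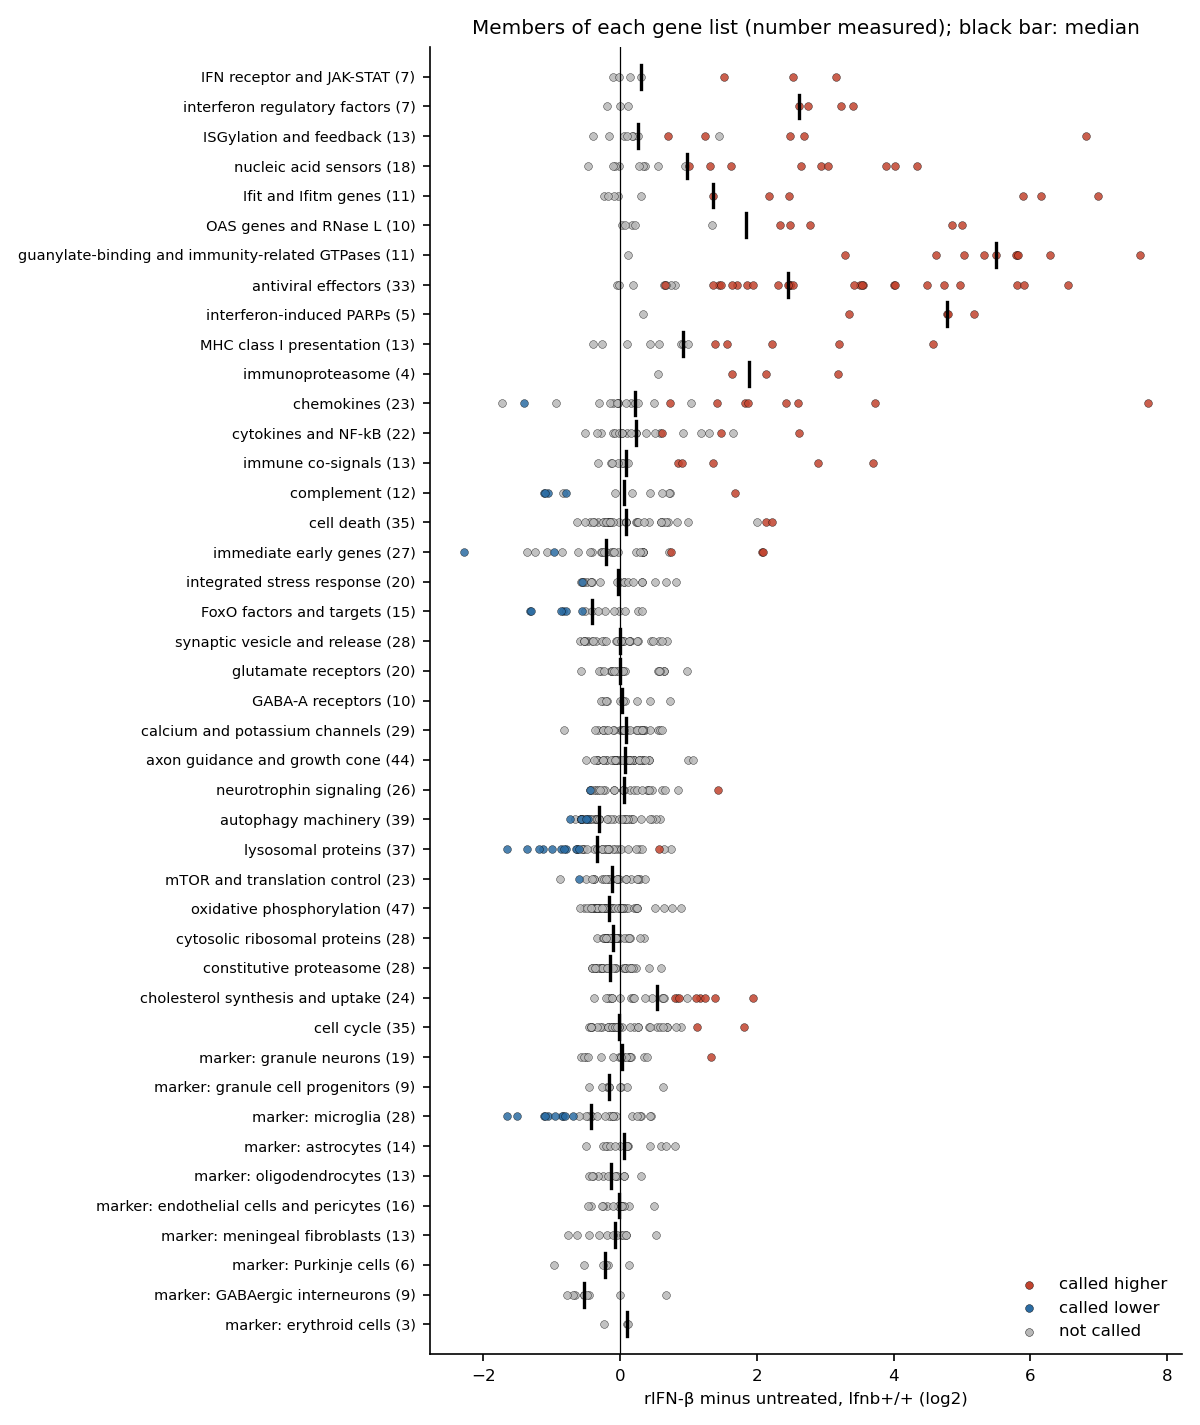
Log2 difference between treated and untreated Ifnb+/+ CGNs (x axis) for every measured member of 43 gene lists (rows, with the number measured), coloured by the call, with a black bar at the median of the list. The upper rows, which hold the interferon-stimulated families, reach to the right with medians up to 5.50, the neuronal lists lie around 0, and the lists of lysosomal proteins and of microglial markers hold 10 genes called lower each.

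Genes of cholesterol synthesis rose outside the antiviral lists. Of 24 measured genes 7 rose and none fell, with a median of 0.54. At limma's unadjusted p under 0.05, 12 were higher, as were 1602 of all 18193 genes. Idi1, an isomerase that makes a building block of sterols, read 7.71, 8.55 and 8.20 against 9.99, 10.10 and 10.19 (log2 fold change 1.94, adjusted p = 0.000574). Hsd17b7 (1.39), Msmo1 (1.24), Hmgcs1 (1.17) and Sc5d (0.81), which are enzymes of the same pathway, and Ch25h (1.11), which turns cholesterol into an antiviral oxysterol, were called too. From the 6 Ifnb+/+ arrays alone 3 genes of the list were called, and Ch25h and Sc5d lost the call without 1 or more of the Ifnb+/+ arrays. In Ifnb-/- cultures 5 genes of the list were higher and the median was 0.75, though the calls of both genotypes shared 1 estimate of the spread.

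Factors and targets of the FoxO pathway, which insulin and growth factors restrain through Akt, fell in 6 of 15 cases and rose in none. Irs2, an adaptor of the insulin receptor, read 6.27, 6.46 and 6.42 untreated and 5.19, 5.19 and 4.82 treated (log2 fold change −1.32, standard error 0.13, adjusted p = 9.66e-05). Fbxo32 (−1.30), a ubiquitin ligase of muscle atrophy, Txnip (−0.86), an inhibitor of thioredoxin, Pik3ip1 (−0.84), an inhibitor of PI3 kinase, Sesn1 (−0.79) and Foxo3 (−0.56) were the others. The groups did not overlap in any of the 6, as in all 247 genes called lower and in 16.0% of all genes. From the Ifnb+/+ arrays alone 2 of the 6 were called. Fbxo32, Txnip, Pik3ip1 and Foxo3 lost the call without 1 or more of the Ifnb+/+ arrays. The dimmer probe sets of Fbxo32 did not pass limma's test (adjusted p = 0.293 and 0.134). The Ifnb-/- cultures also gave 6 lower genes of the list and none higher. There Irs2 changed by −0.93 (adjusted p = 0.00277) and Pik3ip1 by −1.89 (adjusted p = 0.000334).

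The gene that fell most was Npas4, a transcription factor that neuronal activity induces. It read 6.16, 6.22 and 6.11 in untreated and 2.92, 3.91 and 4.83 in treated arrays (log2 fold change −2.28, standard error 0.38, adjusted p = 0.00625), and in Ifnb-/- cultures its log2 fold change was −1.38 (adjusted p = 0.106). Of 27 immediate early genes Npas4 and Dusp1 (−0.97), a phosphatase of MAP kinases, fell, while Gadd45g (2.09), Klf4 (2.08) and Atf3 (0.74) rose. Dusp1, Gadd45g and Klf4 lost the call without 1 or more of the Ifnb+/+ arrays, and no gene of the list was called from those arrays alone. Bmf, which encodes a death-promoting member of the Bcl-2 family, read 6.78, 6.40 and 6.64 against a treated mean of 4.80 ± 0.20 (SD, n = 3). Its log2 fold change of −1.80 (adjusted p = 1.01e-05) stood beside −0.77 (adjusted p = 0.0136) in Ifnb-/-. Cxcr4, the receptor of the chemokine Cxcl12, fell by 1.69 on the log2 scale.

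Genes of macrophages and lysosomes were among the other large decreases. Adam8, a metalloprotease gene of myeloid cells, read 7.09, 7.44 and 7.38 against 5.56, 5.15 and 5.12 (log2 fold change −2.03, adjusted p = 5.6e-06). Cd68, a lysosomal glycoprotein of macrophages, read 8.96, 9.15 and 8.97 against 7.76, 7.12 and 7.25 (−1.65, adjusted p = 0.000372), and Trem2, a lipid receptor of microglia, read 6.79, 6.75 and 6.49 against 5.19, 4.95 and 5.39 (−1.50, adjusted p = 8.01e-05). The groups did not overlap in Adam8, Cd68 or Trem2, as in all 247 genes called lower and in 16.0% of all genes. Lgals3 (−1.48), which encodes galectin-3, Stab1 (−1.50), a scavenger receptor, Gpnmb (−1.34), Cd300lb (−1.63), P2ry6 (−1.47), a nucleotide receptor, and Tlr13 (−1.34), a sensor of bacterial RNA, were lower as well, of which P2ry6 and Tlr13 lost the call without 1 or more of the Ifnb+/+ arrays. The dimmer second probe set of Trem2 did not pass the test and had the opposite sign.

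Of 28 microglial marker genes 10 fell and none rose, with a list median of −0.42 against −0.03 over all genes. The 10 were Trem2, Cd68, C1qa, C1qb and C1qc, which encode the chains of complement C1q, Laptm5, Csf1r, Fcgr3, Cyba and Tyrobp. The mean level of the list was 6.56, 6.82 and 6.65 in untreated and 6.32, 6.33 and 6.09 in treated arrays, without overlap. Of the defining markers, C1qa read 8.45 to 9.24 in untreated arrays, whereas Cx3cr1 read 2.92 to 3.87 and P2ry12 2.37 to 3.13, at low levels. Aif1 (−0.41, adjusted p = 0.427) and P2ry12 (0.46, adjusted p = 0.234) did not pass the test. Of the 10 calls 4 held without each of the 6 Ifnb+/+ arrays, and 2 were made from those arrays alone. In the complement list of 12 genes the other calls were C5ar1, a receptor of complement fragments, which fell, and Serping1, which rose (log2 fold change 1.68, adjusted p = 0.00293). C5ar1 lost the call without 1 or more of the Ifnb+/+ arrays. The study describes the cultures as highly pure CGNs. In bulk RNA, fewer microglia and less RNA of these genes per cell cannot be told apart.

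Lysosomal proteins overlapped with that list in Cd68 and gave 10 lower genes of 37 and 1 higher. Ctsd, the protease cathepsin D, read 10.72, 10.57 and 10.58 against 9.63, 9.40 and 9.44 (log2 fold change −1.13, standard error 0.10, adjusted p = 7.01e-05). The hydrolase genes Gusb (−1.36), Gla (−1.19), Ctsz (−0.99) and Ctsa (−0.86) also fell, and the gene that rose was Scarb2, a membrane protein of lysosomes. Of the 10, 5 were called from the 6 Ifnb+/+ arrays alone. In the autophagy list 5 of 39 genes fell and none rose: Pik3c3 (−0.73, adjusted p = 0.0022), the lipid kinase that starts autophagosomes, Atg13 (−0.56), Sqstm1 (−0.50), the cargo receptor p62, Atg2b (−0.48) and Gabarapl1 (−0.47). None of these 5 was called from the 6 Ifnb+/+ arrays alone, and all but Pik3c3 lost the call without 1 or more of the Ifnb+/+ arrays. The mean of the list moved from 7.38 to 7.43 down to 7.19 to 7.25.

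Genes of synapses, channels and axon guidance were not called, whereas Npas4, the granule neuron marker Barhl2, and Map2k1 and Plcg1 of the neurotrophin list were. Barhl2 and Plcg1 lost the call without 1 or more of the Ifnb+/+ arrays. None of 28 genes of synaptic vesicles and release, 20 glutamate receptor genes, 10 GABA-A receptor genes, 29 calcium and potassium channel genes and 44 genes of axon guidance passed limma's adjusted threshold, and their list medians ran from −0.01 to 0.09. At limma's unadjusted p under 0.05, 1602 of all 18193 genes were higher and 2017 lower. At that threshold the axon guidance list held 4 higher and 0 lower genes, the synaptic vesicle list 6 and 4, and the glutamate receptor list 4 and 1. The channel list held 4 and 2, and the GABA-A receptor list 1 and 0. A gene without a call is not shown to be unchanged. The glutamate receptor gene Gria2 read 7.85, 9.60 and 9.02 untreated and 9.02, 10.33 and 10.08 treated (log2 fold change 0.98, adjusted p = 0.203), with overlap between the groups. Snap25, of the vesicle fusion machinery, moved by 0.68 (adjusted p = 0.0968). Oxidative phosphorylation (47 genes, median −0.16), cytosolic ribosomal proteins (28 genes, median −0.10) and the constitutive proteasome had no called gene either.

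The identity of the cultures was checked on marker lists. Granule neuron genes were strong, with Neurod1 at 11.32 to 12.22 and Neurod2 at 8.29 to 8.62 over the 6 Ifnb+/+ arrays, though Gabra6, a late receptor subunit of mature granule cells, read 4.94 to 5.61. Of 19 granule neuron markers Barhl2 was called higher (log2 fold change 1.33, adjusted p = 0.0308), and that call was lost without some of the arrays. No marker of progenitors, astrocytes, oligodendrocytes, endothelial cells, fibroblasts, Purkinje cells, GABAergic interneurons or erythroid cells was called. The 9 GABAergic interneuron markers nevertheless had a median of −0.52 in Ifnb+/+ and −0.72 in Ifnb-/-. Of these, 3 were lower and 1 higher at limma's unadjusted p under 0.05 in Ifnb+/+, against 2017 lower and 1602 higher of all 18193 genes. The 6 Purkinje cell markers had medians of −0.22 in Ifnb+/+ and −0.35 in Ifnb-/-. Astrocyte genes were present, and Gfap read 10.25, 7.29 and 9.31 in untreated and 8.09, 10.31 and 8.78 in treated arrays, a spread within groups far above the difference between them. Oligodendrocyte Mbp read 9.98 to 10.53 and the inhibitory neuron gene Gad1 9.99 to 11.29 in Ifnb+/+ arrays. Which cells of the culture made each response was not tested.

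**Figure D4:**
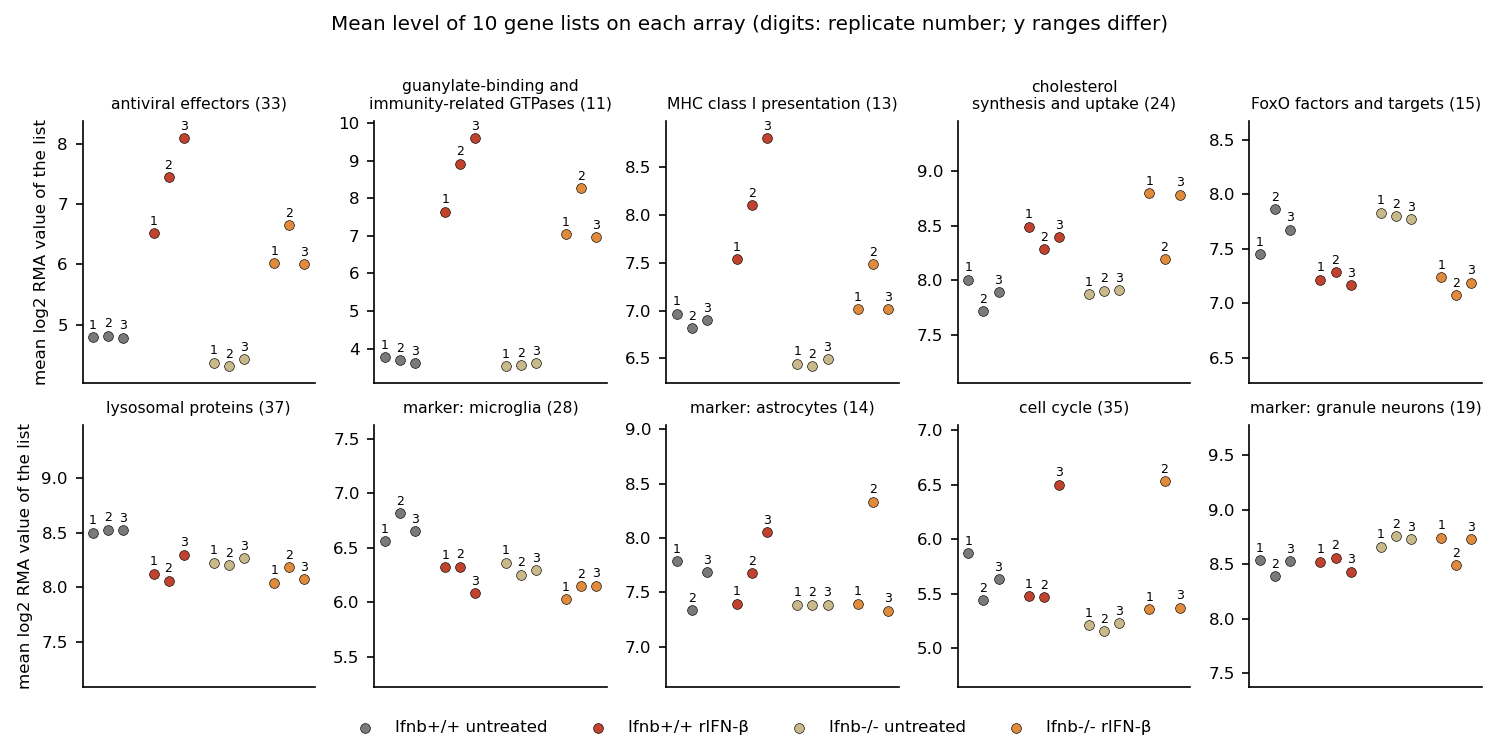
Mean log2 value of 10 gene lists (number of members in parentheses) on each of the 12 arrays, with the replicate number beside each point and colours for the 4 groups. Among the 3 treated Ifnb+/+ arrays the antiviral lists stand lowest in replicate 1 and highest in replicate 3, and the cell cycle and astrocyte lists of replicate 3 stand highest of the 6 Ifnb+/+ arrays.

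The size of the response differed between the treated cultures. Of the 324 higher genes 279 were lowest in treated replicate 1 and 254 highest in treated replicate 3, and their mean level was 6.64, 7.31 and 7.68 in the 3 treated arrays against 5.24 to 5.37 in the untreated ones. The antiviral effectors averaged 6.52, 7.44 and 8.09, and the MHC class I list 7.54, 8.10 and 8.79. Other lists also differed between the treated arrays. Treated replicate 3 had a cell cycle mean of 6.50 against 5.48 and 5.47 in the other treated arrays, and an astrocyte mean of 8.05 against 7.40 and 7.68. In Ifnb-/- cultures treated replicate 2 had the highest antiviral mean, 6.65 against 6.02 and 6.01, and also a cell cycle mean of 6.53 against 5.36 and 5.37. The part of these other lists in the size of the response was not tested.

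Read in the Ifnb-/- cultures, most of the genes called in Ifnb+/+ kept the sign of their change. The group means came from other arrays, but both genotypes shared 1 estimate of the spread, so their calls are not independent. There 169 genes were higher (0.929% of all genes) and 135 lower (0.742%). Of the 324 genes higher in Ifnb+/+, 313 had a positive log2 fold change in Ifnb-/-, 120 were called higher and 0 called lower, but the median was 0.75 in place of 1.39 and 298 had the smaller change in Ifnb-/-. These genes were chosen by their change in Ifnb+/+, so the smaller values in Ifnb-/- are a description only. Cxcl10 (7.37), Usp18 (6.78), Ifit1 (6.96), Rsad2 (6.75) and Irf9 (3.52) had log2 fold changes in Ifnb-/- close to those in Ifnb+/+, with differences of 0.35, 0.03, 0.03, −0.19 and −0.36 (adjusted p from 0.459 to 0.982). Eif2ak2 (0.80 against 2.93) and Samd9l (2.98 against 5.20) differed more, yet their differences did not pass the test (adjusted p = 0.323 for each). Of the 247 lower genes 217 were negative in Ifnb-/-, 46 were called lower there, and the median was −0.28 in place of −0.77. Over all genes the median was 0.07 in Ifnb-/- and −0.03 in Ifnb+/+.

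A difference of the response between genotypes was called for 4 genes, 0.0220% of all genes: Trem2, Adam8, Ctsd and Slc37a2, a sugar phosphate exchanger gene of macrophages. In each the untreated Ifnb+/+ arrays all stood above the arrays of the other 3 groups. Trem2 read 5.54 to 5.75 in untreated and 5.70 to 6.01 in treated Ifnb-/- arrays, against 6.49 to 6.79 and 4.95 to 5.39 in Ifnb+/+. Ctsd read 9.92 to 9.94 and 9.76 to 9.92 in Ifnb-/-, against 10.57 to 10.72 and 9.40 to 9.63. In Ifnb-/- 1 microglial marker was higher and 1 lower, and 2 lysosomal genes were lower. With 1 array left out at a time, the number of called differences ran from 0 to 1237. It was 1237 without Ifnb+/+ untreated replicate 2, 61 without Ifnb+/+ treated replicate 1, and 0 without any 1 of the untreated Ifnb-/- arrays.

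**Figure D5:**
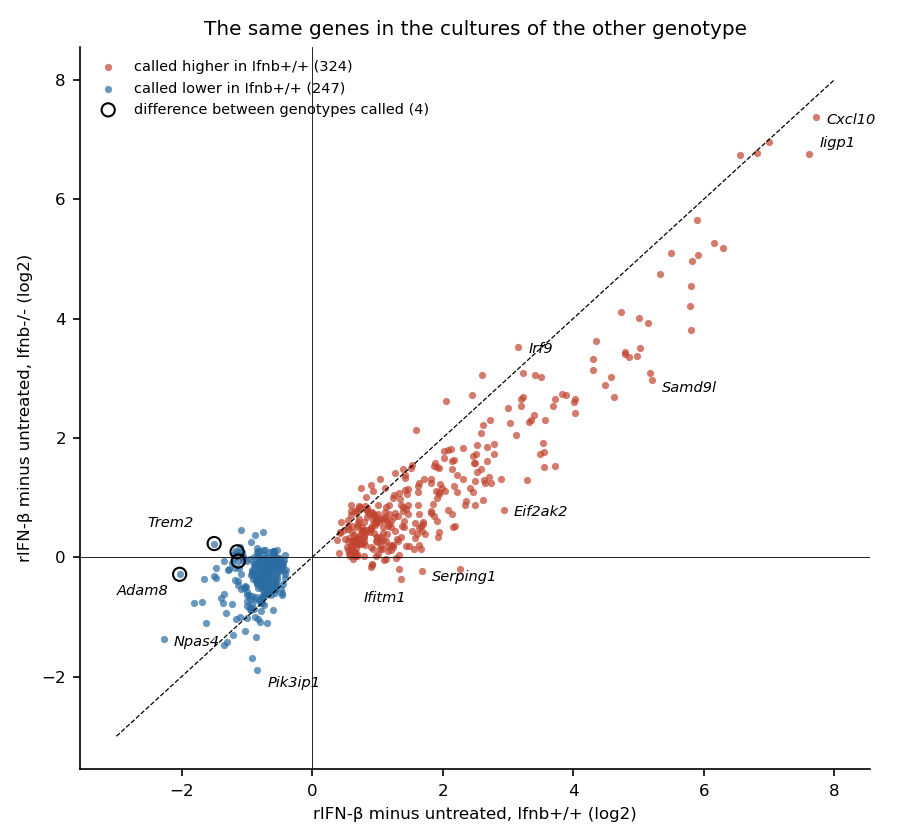
Log2 response to rIFN-β in Ifnb-/- (y axis) against that in Ifnb+/+ CGNs (x axis) for the genes called in Ifnb+/+, 1 point per gene, with the line of equality dashed and the 4 genes whose difference was called ringed. Of the 324 genes called higher 313 lie above 0 on the y axis and 298 below the dashed line, and the ringed genes lie near 0 on the y axis.

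Some genes that rose were neighbours on the chromosome. RefSeq placed 323 of the 324 higher genes. Of these, 75 stood in 30 runs of 2 or more genes next to each other among the 18142 genes tested and placed. Of the 247 lower genes 13 stood in 6 runs. Higher genes made up 1.78% and lower genes 1.36% of all genes tested, and how many would be neighbours at random was not computed. The longest run was Ifi213, Ifi209, Ifi207, Ifi204 and Mndal, a cluster of DNA-binding interferon-inducible genes. Runs of 4 were Ccl2, Ccl7, Ccl11 and Ccl12, and Psmb9, Tap1, Psmb8 and Tap2, which alternate proteasome and peptide transporter genes within the MHC. Runs of 3 included Ifit2, Ifit3 and Ifit1bl1, Parp14, Dtx3l and Parp9, Slfn5, Slfn9 and Slfn8, and Irgm1, Gm12185 and Ifi47. Members of such families are similar in sequence, and probe sets that name several genes were left out.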

How the data were processed

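RNA of 12 cultures, 3 per group, was hybridized to Affymetrix mouse expression arrays. The authors quantile-normalized the arrays, ran RMA in Arraystar, and the deposited table holds log2 values of 45037 probe sets, with array medians of 4.33 to 4.42. Of these 34945 named 1 gene, 932 several and 9160 none in the annotation used. Among probe sets naming 1 gene, each gene kept its brightest by the mean of the 12 arrays. limma 3.58.1 in R 4.3.3 fitted 4 group means (8 residual degrees of freedom) with empirical Bayes moderation, and p-values were adjusted by Benjamini-Hochberg over 18193 genes. On simulated data with 200 changed genes of the wild-type response, it recovered 20 of 67 at 1.5-fold, 47 of 67 at 2-fold and 64 of 66 at 4-fold, and called 8 of 17993 unchanged genes. The simulated noise was independent between arrays, with the same SD of a gene in all 4 groups. The real median SD ran from 0.0872 in untreated Ifnb-/- to 0.201 in untreated Ifnb+/+. These counts therefore do not give the error rate of the real comparison. The members, the 43 gene lists (944 entries, 847 measured) and the tests were chosen with earlier results of these data known. Genes named were the 20 largest changes per direction without overlap, up to 6 called members of a list (or 4 where under 3 were called), leading markers, the receptor and JAK-STAT list, Ifnb1 and genes whose response differed between genotypes. Other genes named from a list's calls or a run of neighbours were chosen after their values were seen. 2 list members were read under their current symbols.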

Additional observations from a re-analysis of the deposited data

Results flagged for a closer look

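The response to rIFN-β differed between genotypes in 4 genes by the interaction term of limma, and in each the Ifnb+/+ cultures showed the decrease. The response in Ifnb+/+ minus that in Ifnb-/- was −1.74 on the log2 scale for Adam8 (adjusted p = 0.012), −1.73 for Trem2 (adjusted p = 0.012), −1.24 for Slc37a2 (adjusted p = 0.0414) and −1.07 for Ctsd (adjusted p = 0.0414). Slc37a2 read 5.46, 5.50 and 5.29 in untreated and 4.05, 4.35 and 4.39 in treated Ifnb+/+ arrays, whereas no untreated Ifnb-/- array was above 4.42 and the treated ones read 4.39 to 4.65. Serping1, which encodes the inhibitor of complement C1, lay on opposite sides of its untreated arrays in the 2 genotypes. It read 7.32 to 7.56 untreated and 8.36 to 9.64 treated in Ifnb+/+, but 7.69 to 7.78 untreated and 7.34 to 7.58 treated in Ifnb-/-, without overlap in either genotype. The gene was flagged for opposite directions without overlap, so the lack of overlap is part of that choice. In Ifnb-/- its log2 fold change of −0.23 did not pass limma's test (adjusted p = 0.685). The difference of 1.90 between genotypes did not pass either (adjusted p = 0.238).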

How the results depend on the processing

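Against 324 higher and 247 lower genes, the alternatives gave 99 and 32 from the 6 Ifnb+/+ arrays alone, 0 and 0 with the methods' t-test after adjustment, 830 and 533 at limma's unadjusted p under 0.05 with 1.5-fold, and 160 and 63 at an adjusted p under 0.01. Leaving out 1 array at a time gave 165 to 1307 higher and 76 to 1598 lower genes. Averaging the probe sets per gene, testing all probe sets singly, a mean of at least 5, a second quantile normalization, centring and a trend with robust variance kept both counts within 1.5 times. With the replicate number as a block 472 genes were higher and 376 lower. Deviations of same-numbered untreated and treated Ifnb+/+ arrays correlated at 0.298, 0.156 and 0.0647. Treated replicates 1 and 2 correlated best with their own number, and treated replicate 3 with untreated replicate 2 (0.182). With 3 arrays per group these values cannot decide whether the numbers mark pairs, and the main fit did not take them as pairs. The 4 differences between genotypes became 0 with the block, 2 when probe sets were tested singly, with a mean of at least 5 or with centring, and 0 to 1237 with 1 array left out. The share of higher genes with the response element, 19.2%, was 26.6% at 2-fold or more, 7.17% with a spacer of 1 base and 4.53% with a spacer of 3. Read from the same probe set or from the mean of its probe sets, no called gene among those named changed direction. Of 60 such genes with another probe set, 7 (Bmf, Trem2, Plcg1, Atg2b, Atg13, Hsd17b7 and Laptm5) had 1 of opposite sign, and 93 of 131 kept their call without each of the 6 Ifnb+/+ arrays. Array weights did not converge and were not used. Signals near the lower end of the scale limit the fold changes of the genes with low untreated readings.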

Other observations

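Some called genes belong to lists in which few others were called. Map2k1, a kinase of the neurotrophin and MAP kinase pathway, read 6.93, 6.91 and 7.02 in untreated and 7.75, 8.47 and 8.95 in treated Ifnb+/+ arrays (log2 fold change 1.44, adjusted p = 0.00478), and 24 of the 26 measured members of its list were not called. Eif4b, a helper of translation initiation that mTOR signaling regulates, read 9.92, 9.71 and 9.89 against 9.37, 9.20 and 9.14 (−0.60, adjusted p = 0.00709), against −0.47 in Ifnb-/- (adjusted p = 0.0429). Mcm6, part of the helicase of DNA replication, rose by 1.81 (adjusted p = 0.00632) and Ccnd2, a cyclin of the G1 phase, by 1.12 (adjusted p = 0.0248), the only genes called of the 35 measured in the cell cycle list. Ccnd2 lost the call without 1 or more of the Ifnb+/+ arrays, and from those arrays alone no gene of the list was called. Both read highest in treated replicate 3, the Ifnb+/+ array with the highest mean of that list. Ppp1r15a, a phosphatase subunit of the integrated stress response, fell by 0.55 on the log2 scale in Ifnb+/+ and had a log2 fold change of 0.00 in Ifnb-/-. Its call in Ifnb+/+ was lost without 1 or more of the Ifnb+/+ arrays. In the integrated stress response list 0 genes were called higher in Ifnb+/+ and 3 in Ifnb-/-. Ptpn2 and Cd47 had log2 fold changes of 1.24 and 0.91 in Ifnb+/+ and 0.20 and −0.11 in Ifnb-/-, where neither passed the test, but the difference between genotypes did not pass for Ptpn2, Cd47 or Ppp1r15a either (adjusted p = 0.323 for each).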
